A study of Homo sapiens with 8 samples.

Results

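Ribosomal protein pseudogenes are copies of ribosomal protein genes that lie elsewhere in the genome, and 104 of them were followed here in RNA bound to ribosomal protein S6 (RPS6) and in total RNA. They were the rows of the 57756-gene tables whose symbol is that of a ribosomal protein gene followed by P and a number, as in RPS2P5, and they were chosen by their measured level, a mean of at least 20 deposited counts over the 8 libraries. In all, 845 rows carry such a symbol, 619 had a count above 0 in at least 1 library, and 741 fell short of the mean of 20. The symbol before the final P names the parent gene, and the 104 pseudogenes have 42 parents. Since the level chose the members over RIP and input together, a pseudogene could enter through 1 of the groups alone. In 23 members the mean of the RIP libraries was under 20, in 3 the mean of the inputs was, and 78 reached 20 in both. Just inside the limit lay RPL3P1 (mean 20.3 counts) and RPS9P1 (20.4 counts), and just outside lay RPS27AP1 (19.9 counts) and RPS2P32 (19.9 counts).

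RNA immunoprecipitation (RIP) with an RPS6 antibody was followed by sequencing in 4 established human cancer cell lines, in order to find RNAs, small nucleolar RNAs above all, that associate with this protein of the small ribosomal subunit. These were Hep3B (hepatocellular carcinoma), HCT116 (colon cancer), DU145 (prostate cancer), and SW1990 (pancreatic cancer), and no treatment or genetic change is given in the labels for any of them. Each line gave 1 RIP library and 1 input library made from an aliquot of the lysate, so the 8 libraries form 4 pairs. The lines have no replicate of their own. Every p-value below measures how the difference of RIP and input spreads between lines, except in fits without a block for the line. Those fits ignore the pairing, so that differences in level between lines add to the spread. For the liver pair the sample titles and the study's methods give Hep3B, while the cell line field gives Huh7. The name Hep3B is used here. APOA2, a liver apolipoprotein, was at 9041 FPKM in that input and at no more than 0.445 in the other inputs, which marks the pair as hepatic and does not tell the 2 lines apart. Libraries held 34630363 to 54209632 fragments, recovered from the deposited counts. The SW1990 input stood apart, with 14.1% of its fragments on 79 ribosomal protein mRNAs against 2.99% to 8.53% in the other inputs and 1.55% to 2.91% in the RIP libraries, and the counts of members called, and the calls that were lost, are also given without that pair.

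Most ribosomal protein pseudogenes are processed pseudogenes. They arose when the mRNA of the parent was copied back into DNA and inserted without introns or promoter, and highly expressed housekeeping genes have left the most copies. A minority sit near a foreign promoter or inside another gene and are transcribed. Because their sequences resemble the mRNA of the parent, short reads can align to both, so a count on a pseudogene may include reads of the parent, or of another copy, and the reverse. How the authors' counting divided such reads is not given in the sources used here, and all values of members are uncertain to that extent. Ribosomal protein mRNAs themselves belong to the 5′ terminal oligopyrimidine (TOP) mRNAs, which start with a C and a run of pyrimidines and whose translation depends on mTOR.

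RefSeq (GRCh38.p14, used for names) lists all 104 members. It has 89 as pseudogenes without a transcript, 14 as transcribed pseudogenes, and 1, RPSAP58, as a protein-coding gene now called RPSA2. In the deposited annotation 54 members have a locus of their own, and 50 share a listed locus with at least 1 other gene, which is often a host gene. RPS2P5 shares that of the kinase gene TAOK3, and RPL7P21 that of the glucocorticoid receptor gene NR3C1. RPSAP58 is the member for which the reference holds a start site, so its sequence is set beside that of its parent RPSA, which encodes the laminin receptor precursor and small-subunit protein uS2. These are the 250 bases before and the 50 bases from the annotated start, from RefSeq on GRCh38.p14, with the run of C and T that begins at the start base in capitals.
RPSA, chr3:39406470-39406769, plus strand: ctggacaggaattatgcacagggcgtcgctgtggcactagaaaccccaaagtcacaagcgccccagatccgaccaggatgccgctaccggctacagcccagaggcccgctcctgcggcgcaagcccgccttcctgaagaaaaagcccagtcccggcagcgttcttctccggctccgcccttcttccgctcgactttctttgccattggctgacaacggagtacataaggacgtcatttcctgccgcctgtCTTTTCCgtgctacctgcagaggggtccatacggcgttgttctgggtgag
RPSA2 (RPSAP58), chr19:23762754-23763053, plus strand: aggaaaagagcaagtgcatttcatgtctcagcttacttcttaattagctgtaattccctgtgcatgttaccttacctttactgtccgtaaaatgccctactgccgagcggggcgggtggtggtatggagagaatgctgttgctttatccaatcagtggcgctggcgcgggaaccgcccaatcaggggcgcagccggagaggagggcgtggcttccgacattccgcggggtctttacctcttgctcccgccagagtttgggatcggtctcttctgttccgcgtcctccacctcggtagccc
The annotated start of the parent was a C, which opens a run of 7 pyrimidines. The annotated start of RPSAP58 was an A, and so no base is in capitals there. A C followed by at least 4 further C or T at the start base, searched on the gene's own strand and at that position alone, was present in 23 of the 42 windows that 33 of the parents have (54.8%) and in 1429 of 35116 windows of all genes (4.07%). Compared position by position without gaps, the windows of RPSA and RPSA2 had the same base at 25.7% of positions.

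Together the 104 members took a small share of each library, and that share was lower in RIP than in input in all 4 cell lines. In Hep3B cells it was 0.0701% of fragments in input and 0.0435% in RIP. For HCT116 the pair of values was 0.26% and 0.0658%, for DU145 0.165% and 0.0609%, and for SW1990 0.498% and 0.121%. The 42 parents moved the same way, from 1.84% to 1.24% in Hep3B, 5.96% to 1.68% in HCT116, 1.94% to 1.04% in DU145, and 8.97% to 2.05% in SW1990 cells. A lower share in RIP can stem from less of the transcript or from more of all others, and these cannot be told apart here, nor can fewer cells with a transcript and less of it per cell. An exact two-sided sign-flip permutation test over 4 pairs has 16 sign assignments, of which at least 2 give a mean as large as the one observed, so that it cannot reach the threshold of 0.05.

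**Figure D1:**
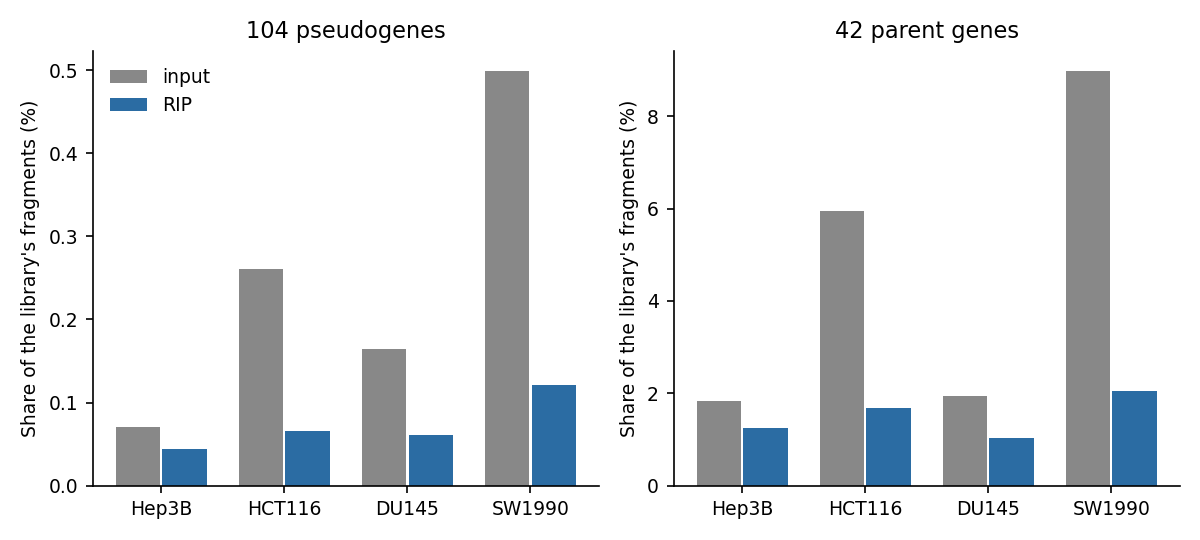
Share of each library's fragments (%) on the 104 pseudogenes (left) and on their 42 parents (right), for the input (grey) and RIP (blue) library of each cell line, 1 library per bar. Both shares were lower in RIP in 4 of 4 cell lines, and the SW1990 input was highest in both, at 0.498% and 8.97%.

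Read within each library, the pseudogenes made up a few percent of all counts on pseudogenes and parents. This share was 3.67% in the Hep3B input and 3.38% in its RIP library, 4.19% and 3.77% for HCT116, 7.81% and 5.52% for DU145, and 5.26% and 5.56% for SW1990. RIP was below input in 3 of 4 lines. The mean was 5.23% ± 1.84 (SD, n = 4) in inputs and 4.56% ± 1.15 (SD, n = 4) in RIP libraries, a difference of -0.67 percentage points ± 1.12 (SD, n = 4; exact two-sided sign-flip permutation p = 0.375). The difference was within the spread between cell lines. Without RPS2P46, the member with the most counts, the RIP mean was 3.21%, and the share was lower in RIP in 4 of 4 lines (exact sign-flip permutation test, 2 of 16 assignments as large, the fewest that 4 pairs allow).

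Counts were concentrated in few members. RPS2P46 and RPS2P5, both copies of the gene for the small-subunit protein uS5, held 45.7% of the members' mean counts, and the 10 most counted held 75.8%. By FPKM (mapped fragments per 1000000 in the library and per kilobase of the gene, a level per length) the highest means were those of RPL41P1 (605 FPKM), RPS2P46 (566), RPS2P5 (326), RPL9P8 (196), and RPSAP58 (173). The median member had a mean of 5.81 FPKM, and 34 of 104 reached 10 FPKM. Of the 104, 7 reached 10% of the mean FPKM of the parent, while 67 stayed under 1% of it.

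RPL41P1 lies at chr20:21735866-21736171 (hg19) and copies the mRNA of RPL41, which encodes the smallest ribosomal protein. Its FPKM was 432 (Hep3B), 960 (HCT116), 960 (DU145), and 1460 (SW1990) in the inputs, and 158, 306, 168, and 400.3 in the RIP libraries of the same lines. Every input was above every RIP library. Its log2 fold change was -1.91 (SE 0.22, adjusted p = 6.3e-05, edgeR's quasi-likelihood test), beside -2.04 for RPL41. Its level was 52.1% to 69.7% of that of RPL41 in all 8 libraries.

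In the order Hep3B, HCT116, DU145, SW1990, RPS2P46 had 211, 1113, 561, and 1257 FPKM in input and 174, 369, 259, and 582 FPKM in RIP. RIP was lower in each line, although inputs and RIP libraries of different lines overlapped. It fell with a log2 fold change of -1.09 (SE 0.26, adjusted p = 0.00554 from the same test), and the parent RPS2 had -0.95 (SE 0.29, adjusted p = 0.0192). Without the block both missed the threshold (adjusted p = 0.208 and 0.308), and RPS2 also missed it without HCT116 (0.105), DU145 (0.0675), or SW1990 (0.0551) and with limma on log2(FPKM + 0.1) (0.0603). RPS2P46 kept to 17.2% to 24.1% of the FPKM of RPS2 across the 8 libraries. RPS2P5 kept to 10.3% to 13.9% and had a log2 fold change of -0.89 (SE 0.30, adjusted p = 0.0288), with Hep3B as the line in which RIP (124 FPKM) was above input (97.2 FPKM). That call was lost without HCT116 (adjusted p = 0.128), DU145 (0.0942), or SW1990 (0.11), without the block (0.257), and with limma on log2(FPKM + 1) (0.0676) or with 0.1 added (0.10).

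RPL9P8 is a copy of RPL9, a large-subunit protein gene. In that order of lines it had 237, 162, 162, and 835 FPKM in input and 43.7, 15.1, 42.3, and 72.6 FPKM in RIP. Its inputs did not overlap its RIP libraries, and the log2 fold change was -3.04 (SE 0.28, adjusted p = 1.8e-05 from edgeR) beside -2.61 for RPL9. Its level relative to RPL9 ran from 12.5% to 36.1%, with both HCT116 libraries lowest.

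Over all members, 42 of 104 fell in RIP and 1 rose (edgeR's quasi-likelihood test, adjusted p under 0.05 over all genes tested), which is 40.4% and 0.962% of the members. Of all 19921 genes tested, 24.9% fell and 26.5% rose. The median log2 fold change of the members was -0.88, against -0.05 for all genes. Short genes as a class lay lower in RIP. Among the 2679 genes tested with a length within the middle range of the members (320 to 749 bases, the length implied by count and FPKM), 31.7% fell, 7.84% rose, and the median was -0.75. The part of length in the members' values was not tested. Of the parents, 27 of 42 fell and 1 rose, with a median of -1.56, and of the 79 ribosomal protein mRNAs, which include the parents, 59 fell and 1 rose. Pseudogenes of other housekeeping genes with the same minimum numbered 134, of which 22 fell and 20 rose, with a median of 0.18 and a longer median length of 1054 bases. Of the 4 long nuclear-retained RNAs tested as a check, such as MALAT1 and NEAT1, 3 fell.

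These directions are relative to the bulk of genes in a library. When libraries were scaled so that ribosomal protein mRNAs had a median of 0, 20 members rose and 2 fell, their median became 0.87 and that of all genes 1.65. Without the SW1990 pair 23 members fell, and without the cell line as a block 4 did. Without Hep3B, HCT116, or DU145 the number that fell was 47, 29, or 38. The 78 members with a mean of 20 in both groups included 27 that fell (34.6%) and 1 that rose (1.28%), with a median of -0.64. Genes tested in the members' middle range of lengths were close to this, with 31.7% lower and a median of -0.75. All genes tested had 24.9% lower. Of the 23 members with a RIP mean under 20, 15 fell (65.2%). The count over all members thus rests in part on pseudogenes that passed the limit through their inputs. Members on a locus of their own (20 of 54 fell, 37.0%) and on a shared locus (22 of 50 fell, 44.0%) had medians of -0.83 and -0.92. Copies of large-subunit genes (25 of 62 fell, 40.3%) and of small-subunit genes (17 of 42 fell, 40.5%) had medians of -0.74 and -1.02.

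The members that fell most, among those lower in all 4 lines, were RPL32P29, RPS3AP25, RPL39P3, RPL12P4, RPL9P8, RPL7P32, RPS15AP1, and RPS23P8, with log2 fold changes from -4.60 to -2.77. Of these 8, RPL9P8 reached a mean of 20 counts in RIP (641 counts). The other 7 had RIP means of 3.6 to 18.3 counts and entered through their inputs alone, the group in which they are high, so that their fall is in part set by the choice and their values are given as a description. In a fit with no block for the line, 6 of these missed the threshold (adjusted p = 0.0616 to 0.233), the exceptions being RPL9P8 and RPS23P8. RPL32P29 had the lowest value of all members (SE 0.72, adjusted p = 0.00041 from edgeR). It had 31, 436, 42, and 194 fragments in the Hep3B, HCT116, DU145, and SW1990 inputs and 0, 29, 0, and 6 in the RIP libraries, so RIP was lower in each line and 2 RIP libraries were at 0, while the HCT116 RIP library (3.55 FPKM) overlapped the inputs of Hep3B (3.23) and DU145 (2.69). Its listed locus also holds RN7SL1, the abundant RNA of the signal recognition particle, which fell by 6.36 on the log2 scale, and RPS29, and the part of their reads in this value was not tested. The parent RPL32 had -2.0.

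RPS3AP25 (chr7:94324339-94325131, hg19) is a copy of RPS3A, the gene of the small-subunit protein eS1. It and the members that follow, down to RPS15AP1, entered through their inputs alone. Their p-values, overlaps, and lost calls are therefore a description and no support for a fall. RPS3AP25 had 23.5, 49.1, 19.5, and 277 counts in the Hep3B, HCT116, DU145, and SW1990 inputs and 0, 10.9, 0, and 22.6 in the RIP libraries. It was lower in RIP in each line, though the SW1990 RIP library lay above the DU145 input. The log2 fold change was -3.73 (SE 0.83, adjusted p = 0.00342), with RPS3A at -2.43. RPL12P4 (chr20:53691155-53691685, hg19), a copy of the gene of uL11 in the stalk base of the large subunit, had 34.7, 116, 65.3, and 586 counts in the inputs and 2.43, 5.46, 36.7, and 28.5 in RIP. RIP was lower in each line, with the DU145 RIP library above the Hep3B input. Its log2 fold change was -3.37 (SE 0.72, adjusted p = 0.0028), with RPL12 at -3.05. RPS23P8 (chrX:70182814-70183143, hg19), a copy of the decoding-centre protein gene RPS23, went from 44.9, 110, 116, and 312 counts to 14.6, 14.2, 19, and 21.4, with no overlap between groups and a log2 fold change of -2.77 (SE 0.54, adjusted p = 0.00156) beside -2.54 for RPS23. RPL39P3 (-3.37, adjusted p = 0.0138), RPL7P32 (-3.00, adjusted p = 9.4e-04), and RPS15AP1 (-2.81, adjusted p = 0.00971) share listed loci with other genes. RPL39P3 and RPS15AP1 missed the threshold without HCT116 (adjusted p = 0.0542 and 0.0519) or SW1990 (0.072 and 0.0747). The parents RPL39, RPL7, and RPS15A had -3.23, -2.57, and -3.68.

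The 1 member that rose was RPL3P4 (chr14:99439216-99439638, hg19), a copy of RPL3, which encodes the protein uL3 near the peptidyl transferase centre. Its inputs had 1.73 (Hep3B), 13.2 (HCT116), 3.73 (DU145), and 16.1 FPKM (SW1990), and the matching RIP libraries 8.04, 29.4, 8.79, and 20.1 FPKM. RIP was higher in each line, and the groups overlapped between lines. The log2 fold change was 1.13 (SE 0.42, adjusted p = 0.0462 from edgeR), and it did not pass the threshold when Hep3B, HCT116, or DU145 was left out (adjusted p = 0.13, 0.14, and 0.109), without the block (0.578), or with a minimum of 50 counts (0.0564) or none (0.0596). RPL3 was likewise the 1 parent that rose (0.72, SE 0.27, adjusted p = 0.0484), and it missed the threshold without Hep3B (0.216) or DU145 (0.244), without the block (0.769), and with a minimum of 50 counts (0.0681).

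Within a family, pseudogenes lay close to their parent. The log2 fold change of a member was within 1 of the parent's in 92 of 104 cases and had the same sign in 94. However, 87 of the 104 members and 39 of the 42 parents were below 0, which alone makes an equal sign common. How often members come as close to parents of other families was not tested. Across the 104 members the log2 fold changes of member and parent had Pearson's r of 0.85 and Spearman's rho of 0.88. This correlation is across genes and is a description only, since members of a family share a parent and may share its reads, and all points come from the same 8 libraries. Restricted to the 43 members with a mean of at least 100 counts, r was 0.92. All 42 members that fell were copies of parents that fell themselves, where they made up 42 of 65 members. Of these 42, 15 had a RIP mean under 20 and entered through their inputs alone, so that their fall is in part set by the choice. Of 34 copies of parents that did not pass the threshold, 0 fell and 0 rose with edgeR, 1 had an unadjusted p under 0.05, and DESeq2 called 0. Among members with a mean of 20 in both groups, 27 of 44 copies of parents that fell did so. Of 31 such copies of parents that did not pass the threshold, 0 fell.

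**Figure D2:**
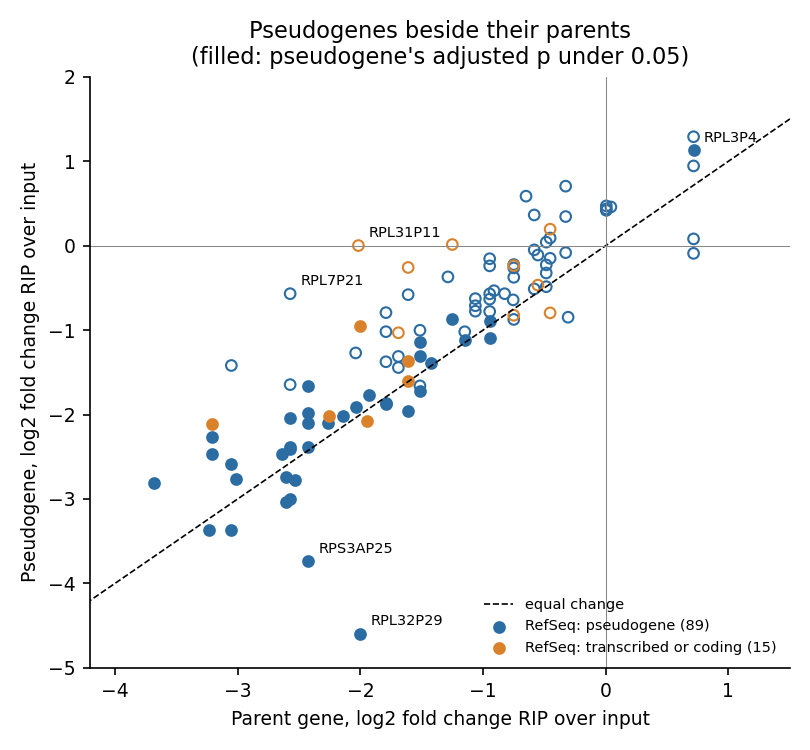
Log2 fold change of RIP over input for each pseudogene (vertical) against that of its parent (horizontal), from 1 edgeR fit over 8 libraries. Filled points passed the threshold, orange points are those RefSeq lists as transcribed or coding, and the dashed line marks equal change. Most points follow the line, 82 of 104 lie above it, and RPL31P11 and RPL7P21 stand far above.

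Families differed in the main as their parents did, though not in every case. The 17 parents with at least 3 pseudogenes hold the larger families, up to 7 copies for RPS2. Of the copies that met the limit on the mean, 3 of 3 fell for RPL21 (-2.47 to -2.11, parent -3.21) and 5 of 5 for RPS3A (-3.73 to -1.67, parent -2.43). Of the copies of RPL7, a large-subunit gene, 4 of 6 fell (-3.00 to -0.57, parent -2.57), and of those of RPL12, 2 of 3 (-3.37 to -1.42, parent -3.05). Of the copies of RPS26, RPS7, and RPL23A, 2 of 5, 3 of 5, and 3 of 5 fell, with parents at -1.79, -1.51, and -1.61. In 2 families few or no copies passed the threshold although the parent fell. For RPS10 0 of 3 copies fell (-1.44 to -1.03, parent -1.69), and for RPS2 2 of 7 (-1.09 to -0.15, parent -0.95). RPL21P28 (RIP mean 10 counts), RPS3AP25 (8.4), RPL7P32 (11.7), RPL12P4 (18.3), RPL12P8 (5.5), and RPS7P14 (11.1) are among those that fell and entered through their inputs alone. Among copies with a mean of 20 in both groups, 2 of 2 fell for RPL21, 4 of 4 for RPS3A, 3 of 4 for RPL7, and 0 of 1 for RPL12. For RPS26 2 of 3 of these fell, for RPS7 2 of 3, for RPL23A 3 of 5, for RPS10 0 of 2, and for RPS2 2 of 6. None of the copies of RPL4 (0.42 to 0.47, parent 0.00), RPL7A (-0.49 to 0.04, parent -0.48), RPL13A (-0.80 to 0.20, parent -0.45), RPS4X (-0.08 to 0.71, parent -0.33), RPL35 (-0.51 to 0.36, parent -0.58), RPSA (-0.87 to -0.22, parent -0.75), or RPL29 (-0.78 to -0.63, parent -1.06) passed the threshold. The copies of RPL3 ran from -0.09 to 1.29.

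**Figure D3:**
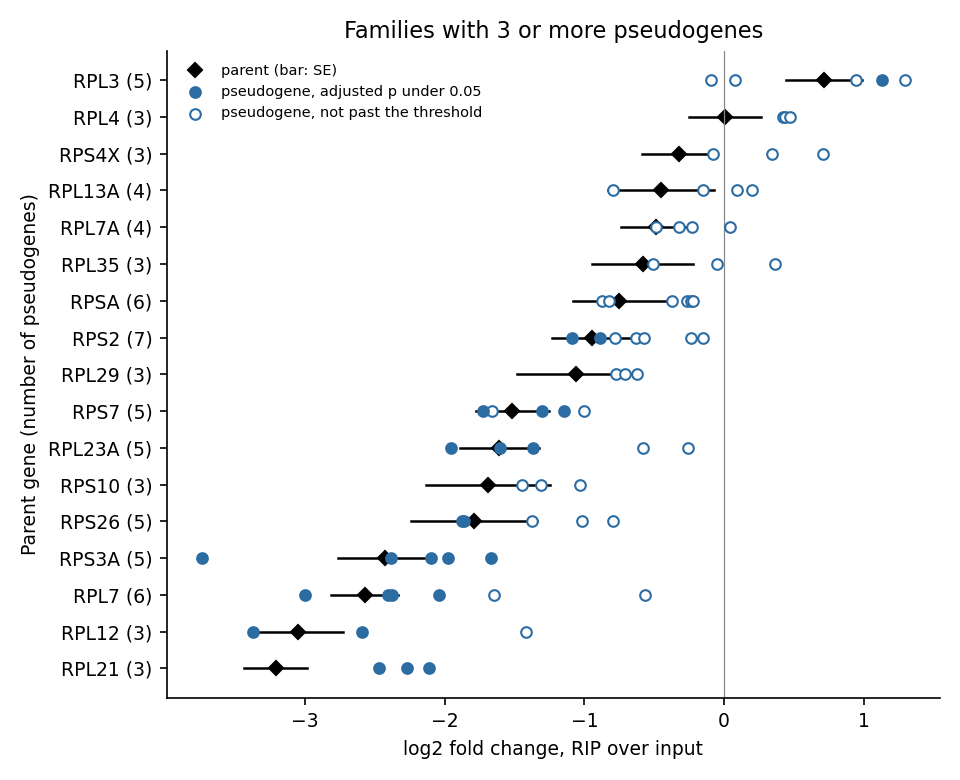
Log2 fold change of RIP over input for each pseudogene (circles, filled where the adjusted p was under 0.05) and its parent (diamond, bar for the SE) in the 17 families with 3 or more pseudogenes, ordered by the parent. Circles move along the axis with the diamonds, from RPL21 at -3.21 to RPL3 at 0.72.

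Counted 1 by 1, most members lay above their parents, that is, at a less negative or a higher log2 fold change. The log2 fold change was above the parent's in 82 of 104 members, with a median gap of 0.32, and in 67 of the 78 members with a mean of 20 in both groups, with a median gap of 0.38. Summed counts, which few members dominate, did not show this. By that measure the pseudogene share was 5.23% in inputs and 4.56% in RIP, a difference within the spread between cell lines. Cell line by cell line, the log2 ratio of RIP to input on the (FPKM + 1) scale, member minus parent, was above 0 in all 4 lines for 53 members and below 0 in all 4 for 3. The median of the members' mean differences was 0.45. This scale pulls the ratio of a pseudogene with little FPKM towards 0 and so adds to the gap, since parents have high FPKM. With counts scaled to the library total (per 1000000, 0.5 added) the number above 0 in all 4 lines was 65 and the median 0.60, and with a pseudocount of 0.1 they were 37 and 0.37. The 0.5 added per 1000000 likewise pulls the ratio of a member with few counts towards 0, so the larger gap on that scale is not free of this effect.

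The largest differences of the same sign in 4 lines were those of RPL31P11 (2.11 ± 0.07, SD, n = 4), RPL7P21 (2.01 ± 0.13), RPL23AP53 (1.95 ± 0.59), and RPL21P28 (1.94 ± 0.60). These were chosen for a large difference of 1 sign, so the values are a description. RPL31P11 had no reads in most libraries, where its difference is minus the parent's ratio alone. RPL7P21, which shares its listed locus with NR3C1, had 20.4, 41.7, 41.0, and 79.1 counts in the inputs and 21.9, 22.9, 32.9, and 34.5 in RIP, with a log2 fold change of -0.57 (SE 0.57, adjusted p = 0.434) beside -2.57 for RPL7 and -0.10 for NR3C1. RPL23AP53 had a log2 fold change of -0.26 (SE 0.66, adjusted p = 0.768), with 68.0 counts in the Hep3B RIP library and 19.4 in the input, and fewer counts in RIP than in input in the other lines. RPL21P28 shares the locus of DTL, which encodes a substrate receptor of a ubiquitin ligase and had 0.84, while the pseudogene fell (-2.11, SE 0.63, adjusted p = 0.0168) and its parent RPL21 had -3.21. The fall of RPL21P28 was not called without HCT116 (adjusted p = 0.0696), SW1990 (0.108), or the block (0.101). The 3 members below their parent in all lines were RPL3P6 (-0.81 ± 0.69), RPL3P1 (-0.79 ± 0.69), and RPS2P46 (-0.21 ± 0.11), likewise a description. The 2 copies of RPL3 had means of 0.425 and 0.342 FPKM, where the added 1 outweighs the level.

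Across the 8 libraries the level of most members rose and fell with that of the parent. Pearson's r between the member's and the parent's log2(FPKM + 1) had a median of 0.91 over the 104 members and reached 0.8 in 80 of them, and these values carry no p because the 8 libraries are 4 pairs and depth, composition, and shared reads act on both. In 34 members the own parent was the best correlated of the 42 parents, and in 65 it was among the best 5. Of the inputs, that of SW1990 had the highest FPKM in 96 of 104 members, and levels between Hep3B or HCT116 and DU145 or SW1990 come from 2 tables that the authors scaled separately. The 15 members that RefSeq lists as transcribed or coding had a median r of 0.69, and 6 of them were under 0.5, as were 3 of the other 89, whose median was 0.92. The own parent was the best correlated for 0 of the 15 and for 34 of the 89. No test was made of this difference.

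**Figure D4:**
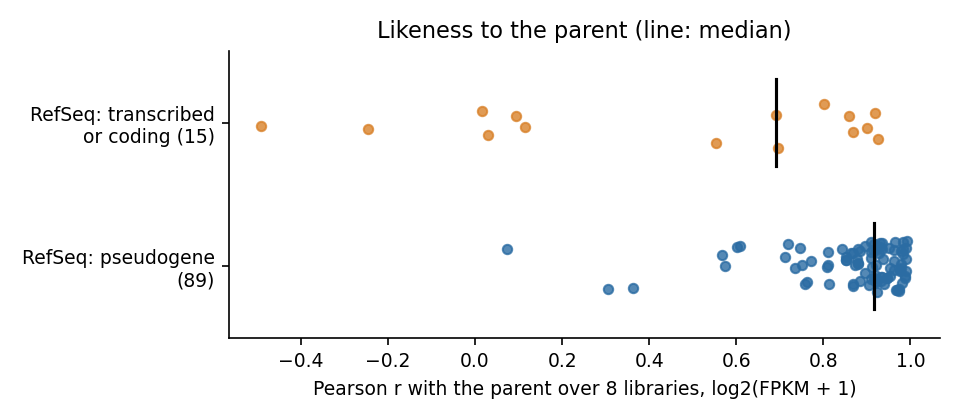
Pearson's r between each pseudogene and its parent over the 8 libraries, on log2(FPKM + 1), for the 89 members RefSeq lists as pseudogenes without a transcript and the 15 it lists as transcribed or coding. Each point is 1 pseudogene, placed at random heights within its row, and lines mark the medians of 0.92 and 0.69.

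The lowest r was that of RPL31P11 (chr1:161653485-161655042, hg19), a transcribed pseudogene with r = -0.49 to RPL31. It had 3756 fragments in the DU145 input and 2109 in the DU145 RIP library, 1 fragment in the SW1990 input, and 0 in the 5 other libraries. The limit that 0 fragments allow is 3, or 0.066 to 0.087 per 1000000 fragments in those libraries. In DU145 cells its FPKM was 49.99 in input and 70.04 in RIP, whereas RPL31 had 99.3 and 30.8. Per 1000000 fragments it went from 69.3 to 57.3, so whether RIP or input was higher turns with the scale. The pseudogene thus stood at 50.3% of the FPKM of its parent in input and at 228% in RIP, and by counts, which are not per length, at 136% and 509%. With 1 pair of libraries there is no test of this. The log2 fold change over the 4 lines was 0.00 (SE 1.23, adjusted p = 0.999) and rests on DU145, beside -2.02 for RPL31.

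RPSAP58 and RPSAP15 also differed between cell lines in their level relative to RPSA. RPSAP15, named here because of its values, lies at chrX:86958277-86959307 (hg19). RPSAP58 had 7.65, 20.8, 249, and 706 FPKM in the Hep3B, HCT116, DU145, and SW1990 inputs and 14.9, 11.9, 115, and 262 FPKM in the RIP libraries. RPSA had 531, 2620, 1025, and 4522 FPKM in these inputs and 830.5, 1145, 735, and 1743 FPKM in RIP. Taken within each library, which sets aside the separate scaling, RPSAP58 was at 0.794% to 1.8% of RPSA in the 4 Hep3B and HCT116 libraries and at 15.05% to 24.3% in the 4 DU145 and SW1990 libraries. RPSAP15 was at 0.306% to 0.591% and at 4.40% to 11.9%. These are descriptions without a test. The split coincides with the 2 deposited tables, and the cell lines and the tables, with any difference in how shared reads were assigned, cannot be told apart. The 2 pseudogenes had r = 0.99 with each other over the 8 libraries, and whether they share reads was not tested. Neither passed the threshold between RIP and input (RPSAP58 -0.82, SE 0.32, adjusted p = 0.0533; RPSAP15 -0.87, SE 0.44, adjusted p = 0.126), although RPSAP58 passed without Hep3B (-1.36, adjusted p = 8.3e-04), with no minimum on counts (8.3e-04), with a minimum of 50 (0.0466), and on recovered fragments (0.0469).

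For most members of high count the level relative to the parent moved less. Of the 43 members with a mean of at least 100 counts, 28 kept a ratio of highest to lowest percent of parent under 3 over the 8 libraries, with a median ratio of 2.50, and 5 had a ratio over 10 or a library at 0. RPL13P12 was at 0.598% to 1.57% of RPL13 in Hep3B, HCT116, and DU145 libraries and at 4.996% and 5.26% in the SW1990 input and RIP library. It had 180 FPKM in the SW1990 input and 73.7 in RIP, against 4.10 to 24.3 elsewhere. RPL35P2, RPL35P5, and RPL18P13 likewise had their highest FPKM in the SW1990 input (113, 33.8, and 13.3) and in its RIP library (37.9, 8.59, and 5.46), but stayed at or under 1.75% of the parent throughout. None of these 4 passed the threshold between RIP and input (adjusted p from 0.60 to 0.947).

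**Figure D5:**
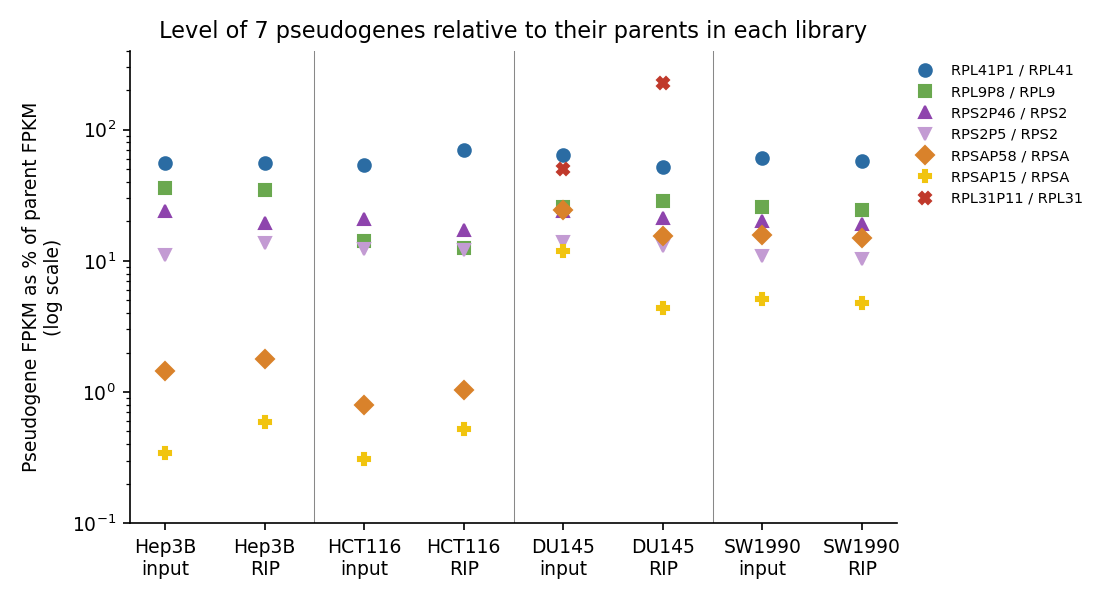
FPKM of 7 pseudogenes as a percent of the FPKM of their parent (log axis) in each of the 8 libraries, 1 point per library. RPL41P1, RPL9P8, RPS2P46, and RPS2P5 stay within 10.3% to 69.7%, RPSAP58 and RPSAP15 are higher in the DU145 and SW1990 libraries, and RPL31P11 is drawn for DU145 alone, since it was at 0 or at 0.00422% of RPL31 elsewhere.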

How the data were processed

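RPS6 RIP and input RNA of 4 cell lines was sequenced from libraries of the TruSeq Stranded Total RNA kit. Per the labels and the study's methods, the authors used CASAVA 1.8 and TopHat2 2.0.9 with the human build hg19. The counting tool, its annotation release, the strand setting, and the treatment of reads that align to several places are not given in the sources used here, and the sources name different sequencers. The authors deposited FPKM values, normalized for length and depth, and estimated counts, scaled by 1 factor per library, in 1 table for Hep3B and HCT116 and 1 for DU145 and SW1990. Further deposited files hold the authors' fold changes, p-values, and q-values per cell line and were not used.

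The members, gene lists, tests, and rules were chosen with earlier results of these data known. The design had assumed raw counts, while the files hold scaled estimates. They were rounded and tested with edgeR 4.0.16 (R 4.3.3; quasi-likelihood test, TMM, cell line as a block, mean of at least 10 counts, Benjamini-Hochberg over 19921 genes, threshold 0.05). The block pairs libraries of the same cell line, so each contrast of RIP and input stays within 1 table. The step common to a library's counts gave whole fragments for 89.1% to 92.2% of its nonzero values (tolerance 0.01), and 34630363 to 54209632 fragments per library. Fragments are not independent molecules, and the limit of 3 fragments covers counting error only. Member minus parent differences used log2(FPKM + 1), which understates the change of low genes, and the share of pseudogenes among all counts on pseudogenes and parents was compared by an exact two-sided sign-flip permutation test over the 4 lines.

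Members were named by rule: among those past the threshold with 1 direction in all 4 lines the 8 highest and 8 lowest log2 fold changes (1 had risen), the 6 highest mean FPKM, the 4 highest and 4 lowest differences from the parent with 1 sign in all lines (3 were below), the 5 with the largest ratio of highest to second input, and 2 on each side of the limit of 20. RPSAP15 was added after its values were seen. Alternatives were no block, DESeq2 1.42.0, no minimum or a minimum of 50 counts, scaling on ribosomal protein mRNAs, limma 3.58.1 on log2(FPKM + 1) and log2(FPKM + 0.1), other definitions of a member, and leaving out each cell line. Recovered fragments and the restrictions to a mean of 20 in both groups and to pseudogenes without a RefSeq transcript were added after the values were seen. Some genes of the check of cell lines and 1 of the 6 members of highest mean FPKM, with its parent, are not reported here. The steps in R were tested on simulated data. Python 3.11.15 with pandas 2.3.3 and matplotlib 3.10.9 was used for the rest. No genome was used, so sequences of the pseudogenes were not analysed here.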

Additional observations from a re-analysis of the deposited data

Results flagged for a closer look

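In 6 of 74 groups of 4 values examined for the named members, 1 cell line lay far from the other 3 by Dixon's test. The test flags about 1 in 20 independent groups by chance. That rate cannot be set beside the 6 of 74, since 5 members were named for a high level in 1 line. The input, RIP, and ratio groups of a member are also not independent. RPL31P11, which was named in that way, accounted for 3 of the 6 groups. Its log2(FPKM + 1) in DU145 cells was 5.67 in input, against 0 to 0.0297 in the other inputs, and 6.15 in RIP, against 0 in the others, and the log2 ratio of its RIP to its input library was 0.478 there, against -0.0297 to 0. RPS3AP25 had a log2 ratio of -2.41 in SW1990 cells, against -0.874 to -0.707 in the other lines, where its RIP libraries had few or no reads. RPS2P5 had a log2 ratio of 0.343 in Hep3B cells, against -1.33 to -1.04 in the others. RPS9P1 had 0.173 in DU145 cells, against -0.743 to -0.595, at 5 to 46 counts per library.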

How the results depend on the processing

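Against 42 members lower and 1 higher, edgeR without the cell line as a block, that is, with no replicate block, gave 4 and 0 (parents 16 and 0, against 27 and 1). Scaling on ribosomal protein mRNAs gave 2 lower and 20 higher (parents 5 and 6) and turned the medians to 0.87 for members and 0.18 for parents, with all genes at 1.65. Among the members named by rule and their parents that passed the threshold in either fit, it also turned RPS2P46 (0.66), RPS2P5 (0.87), RPL13P12 (1.65), RPL35P2 (1.73), RPL23A (0.14), RPS2 (0.80), and RPS9 (1.43) above 0. Others that passed in neither fit turned above 0 too, such as RPSAP58 (0.97), RPL7P21 (1.18), and RPL13 (1.19). Members called higher numbered 2 with DESeq2, 0 without a minimum or with a minimum of 50 (70 members and 42 parents tested, parents 0 higher), 2 with limma on log2(FPKM + 1), and 3 with 0.1 added. Leaving out 1 cell line gave 23 to 47 members lower, 0 to 1 higher, and medians of -1.37 to -0.58, with 24 to 35 parents lower and 0 to 1 higher. Of 54 members on their own locus 20 fell (37.0%), and of 78 with a mean of 20 in both groups 27 fell (34.6%). Among all genes tested 24.9% fell, and among those in the members' middle range of lengths 31.7%. Without RPS2P46 the RIP share was 3.21%. Other alternatives kept these counts within 1.5 times and the direction of the medians, and the cause of the changes was not tested. DESeq2 and the fit on recovered fragments called all 42 members lower again. Few fragments limit the rest: 23 members had a RIP mean under 20 counts, and RPL3P4 passed by a small margin.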
